A study of Mus musculus with 24 samples.

Results

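The axon guidance ligands and receptors measured in the embryonic mouse jaw comprised 67 of the 18193 genes with a probe set assigned to 1 gene symbol. They were defined by gene symbol, with earlier results of these data known. The list took all semaphorins (Sema), plexins (Plxn), ephrins (Efn) and Eph receptors, and the slits Slit1 to Slit3. Added to these were the roundabout receptors Robo1 to Robo4 and the netrins Ntn1, Ntn3 and Ntn4. The netrin receptors Dcc and Unc5a to Unc5d and the neuropilins Nrp1 and Nrp2 completed it. The families held 7 class 3 semaphorins, 13 other semaphorins, 9 plexins, 2 neuropilins, 5 A-type and 3 B-type ephrins, and, among those tested, 8 EphA and 4 EphB receptors. Ephb2 is not analysed here. Where a gene had several probe sets, the brightest on average stood for it. Of the 67 members, 65 were tested and 60 lay above the filter level in all 24 arrays. Epha6 and Robo3 lay below it on every array (levels of 4.39 to 5.30 and 4.91 to 5.42) and were not tested.

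RNA came from the jaws of C57B6 embryos at embryonic day 14.5. The litters came from Wnt1cre;Alk5fl/+ by Alk5fl/fl crosses. Alk5 is the TGF-beta type I receptor encoded by Tgfbr1, and Wnt1-Cre recombines in the cranial neural crest lineage, to which the epithelium, muscle, endothelium and immune cells of the jaw do not belong. Mutants were recognised by their clefts and calvarial defects, and controls were littermates that by the cross carried at least 1 floxed allele and whose Cre status is not given. Mandible and maxilla were each cut into a distal and a proximal part, labelled as bone, which gave 8 groups of 3 single-colour arrays. Nothing in the labels ties the 3 arrays of a group to separate embryos, and every p-value here reflects the array-to-array spread alone.

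Axon guidance molecules are signals between cells that attract or repel growing axons, and the same ligands and receptors position migrating neural crest cells, blood vessels and skeletal cells. Netrins are secreted and act through Dcc, often as attractants, and through Unc5 receptors, which mediate repulsion. Slits repel through Robo receptors. Class 3 semaphorins are secreted and mostly signal through a neuropilin bound to a plexin, whereas the other vertebrate semaphorins are membrane-bound and signal mainly through plexins. Ephrins stay on the cell surface, so Eph signalling needs cell contact, and it separates cell groups at tissue boundaries. In the face, EphB signalling, ephrin-B1 and ephrin-B2 are known to take part in palate formation, and several semaphorins are exchanged between bone-forming and bone-resorbing cells.

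All values are log2 levels after RMA, a method that corrects, normalizes and summarises probe signals, and a log2 difference of 1 is a doubling. Array medians lay between 7.03 and 7.12, and the level that a gene had to exceed in at least 3 arrays to be tested was 6.33 to 6.47. Tgfbr1 ranged from 11.92 to 12.36 in controls (median 12.10) and from 12.20 to 12.57 in mutants (median 12.45). The difference passed (0.26 ± 0.04, SE, adjusted p = 0.000146), so the targeted gene was called higher in mutants, and its other 2 probe sets differed by 0.56 and 0.55 in the same direction. Where the probe sets lie relative to the deleted part is not given in the sources used here, so these values do not check the genotype labels. The mutant distal and proximal maxilla arrays numbered 3 each correlated better with a mutant mandible group (mean r of 0.9903 and 0.9913 over probe sets) than with their own (0.9898 and 0.9882). Another 4 maxilla arrays were closer to the mutant distal maxilla than to their own group. They were control distal maxilla 1 (0.9926 against 0.992) and 2 (0.9919 against 0.9917), and mutant proximal maxilla 1 (0.9919 against 0.9918) and 2 (0.9915 against 0.9907). The mutant arrays numbered 1 and 3 carried both Xist (11.15 to 12.79), the transcript that silences an X chromosome, and Y-linked Kdm5d (8.85 to 10.01), whereas control arrays numbered 1 and mutant arrays numbered 2 had Kdm5d at 3.84 to 4.22 and the control arrays numbered 2 and 3 had Xist at 6.23 to 7.49. Xist stood at 13.53 to 13.67 in control arrays numbered 1 and at 13.03 to 13.39 in mutant arrays numbered 2. It was thus high in all mutant arrays, but among controls only in the arrays numbered 1. A fit with Xist as a covariate can therefore take up part of the genotype difference. In bulk tissue, fewer cells of a type and less RNA per cell cannot be told apart.

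Averaged over the 4 regions, the mutant jaws showed higher levels of Unc5d, of several Eph receptors and of their ephrin ligands, and lower levels of the secreted semaphorins Sema3b and Sema3c, of Sema4d and of Unc5b. Sema3e was lower in this mean too, with a log2 change of -0.68 in the mandible and -0.03 in the maxilla. Of the 65 members tested, 18 rose and 10 fell at an adjusted p under 0.05 (limma with Benjamini-Hochberg adjustment over all genes, 12 arrays per genotype). This fit takes the 12 arrays as independent, and the adjusted p of the mean change given by family come from it. Calls were common across the whole array in this comparison: 40.6% of all genes tested passed, 25.2% higher and 15.3% lower. The 43.1% of members that passed therefore lies near the background and is not a result about the list. The median log2 change of the members was 0.04, against 0.02 over all genes. By family, all 3 B-type ephrins, 3 of 4 EphB receptors and 4 of 8 EphA receptors rose, no class 3 semaphorin rose and 3 of 7 fell, and 1 of 9 plexins, Plxnd1, fell. In the fit that first averages the 4 regions per number, described after the families, 1 of 3 B-type ephrins, 2 of 4 EphB receptors and 2 of 8 EphA receptors were still called higher, and 2 of 7 class 3 semaphorins lower. Cell type markers moved in the same mean: 6 of 7 cartilage (median log2 change -2.23), 5 of 5 bone (-2.04), 7 of 8 macrophage and osteoclast (-0.99) and 4 of 8 muscle markers (-0.79) were lower. Of the other lists, 5 of 9 epithelial (0.52) and 4 of 8 cranial mesenchyme markers (0.37) were higher, and of 6 Schwann cell and glial markers 4 were higher and 1 lower (0.21). Their part in the members' changes was not tested.

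Unc5d, a repulsive netrin receptor that also binds the FLRT adhesion proteins, had the largest log2 change of any member. Its levels were 7.71, 7.89 and 7.98 in the control distal mandible and 9.02, 8.83 and 8.48 in the mutant. In the proximal mandible they were 7.91, 7.76 and 7.78 in controls and 8.89, 8.69 and 9.36 in mutants. Control and mutant arrays did not overlap in these regions. In the distal maxilla the control values were more scattered, at 8.52, 7.95 and 7.32, and the mutant values of 9.16, 8.85 and 9.0 lay above them. In the proximal maxilla controls stood at 8.04, 6.60 and 7.32 and mutants at 8.62, 7.84 and 9.77, so the lowest mutant array lay inside the control range. The mean log2 change was 1.14 ± 0.19 (SE, 2.21-fold, adjusted p = 0.000101).

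By region, the change of Unc5d passed in the proximal mandible (1.17 ± 0.38, SE, adjusted p = 0.036) and in the proximal maxilla (1.42 ± 0.38, adjusted p = 0.0226), and was 0.92 ± 0.38 (adjusted p = 0.111) in the distal mandible and 1.07 ± 0.38 in the distal maxilla (adjusted p = 0.124). The difference between jaws (adjusted p = 0.816) and between ends (adjusted p = 0.925) did not pass. The call in the proximal mandible ended without any single array of the region other than mutant 2 (0.98 to 1.21, adjusted p of 0.0634 to 0.122). That in the proximal maxilla ended without control 2, control 3 or mutant 3 (0.91 to 1.42, adjusted p of 0.0655 to 0.154). With the Xist level as a covariate neither region passed (0.98, adjusted p = 0.108, and 1.26, adjusted p = 0.0593).

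**Figure D1:**
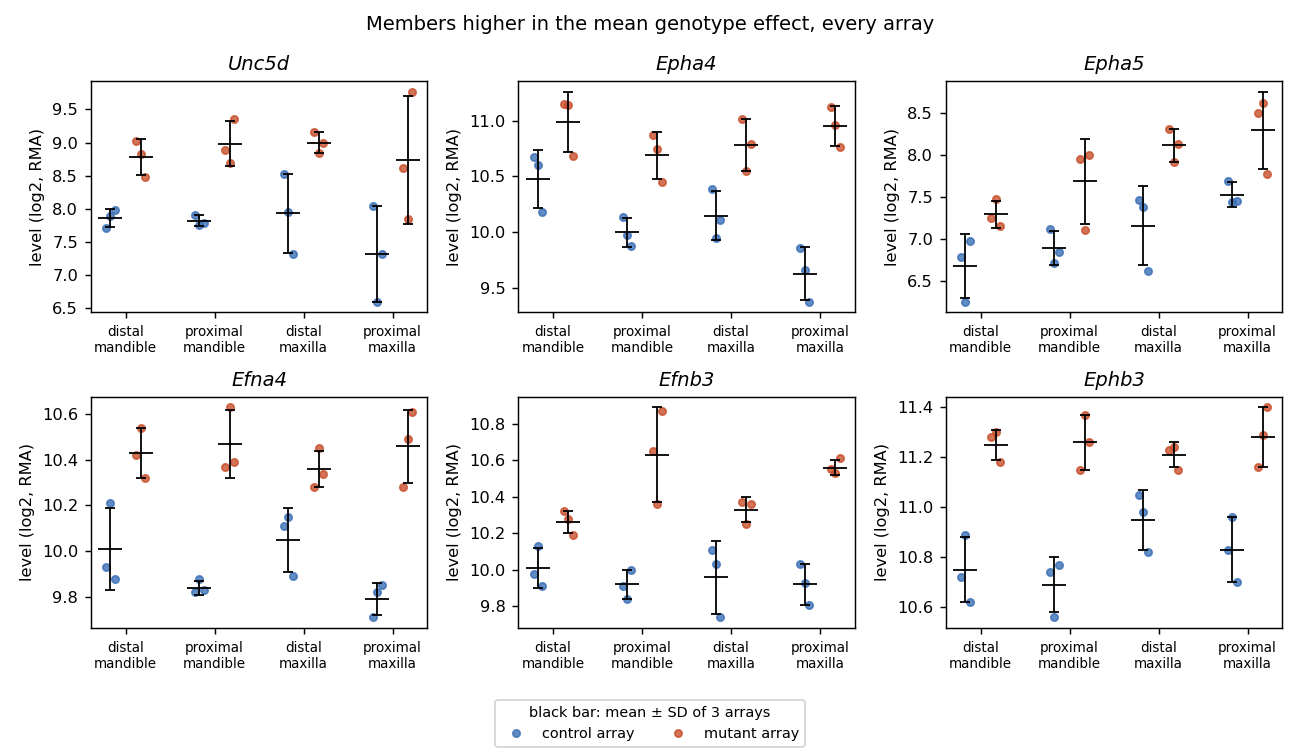
Levels (log2, after RMA) of 6 members that rose in the mean genotype effect, by region, with each array as a point (blue, control, left; red, mutant, right) and the mean ± SD of 3 arrays in black. The 12 mutant arrays of Efna4, Efnb3 and Ephb3 lie above all 12 control arrays, and Unc5d has its widest spread in the proximal maxilla.

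The other netrin receptors differed in sign. Unc5b, a netrin receptor known from blood vessel sprouting, fell, with a control range of 9.25 to 10.48 (median 9.79) and a mutant range of 9.0 to 10.03 (median 9.46) over 12 arrays each (mean log2 change -0.41 ± 0.07, SE, adjusted p = 0.000223). The fall was led by the proximal mandible, where controls stood at 10.48, 10.41 and 10.28 and mutants at 9.03, 9.48 and 9.71. Unc5c rose by 0.24 ± 0.09 (adjusted p = 0.0315), a call that ended when any 1 of 6 arrays was left out (control proximal maxilla 2, mutant distal mandible 2, mutant proximal mandible 2, mutant distal maxilla 1, and mutant proximal maxilla 1 or 2; 0.21 to 0.24, adjusted p of 0.0508 to 0.0629). Unc5a, at 7.31 to 7.89 on every array, had a change of 0.00 ± 0.04 (adjusted p = 0.979). Dcc, the attractive receptor, had a change of 0.30 ± 0.17 (adjusted p = 0.163). Its mutant arrays lay above the controls in both parts of the maxilla, at 9.49, 9.25 and 9.76 against 8.70, 8.72 and 8.58 in the proximal part, where the change of 0.83 ± 0.34 did not pass (adjusted p = 0.115). Of the ligands, Ntn4, a netrin of basement membranes, rose by 0.35 ± 0.09 (adjusted p = 0.00379), while Ntn1 (0.23 ± 0.11, adjusted p = 0.0936) and Ntn3 (0.19 ± 0.08, adjusted p = 0.0806) did not pass.

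Among the EphA receptors, Epha4, which accepts ephrins of both classes, ranged from 9.38 to 10.67 in controls (median 10.05) and from 10.45 to 11.15 in mutants (median 10.83). Its mean log2 change was 0.79 ± 0.09 (SE, adjusted p = 1.03e-06). The proximal maxilla showed the widest gap, with controls at 9.86, 9.66 and 9.38 and mutants at 11.12, 10.96 and 10.76 (1.31 ± 0.17, 2.49-fold, adjusted p = 0.000104). Epha4 passed in each of the 4 regions and control and mutant arrays did not overlap in any of them. Its calls in the distal mandible and distal maxilla were close to the threshold. They ended with a further quantile normalization (adjusted p of 0.0629 and 0.0853), without a filter (0.057 and 0.0524) and with only the arrays compared (0.0545 and 0.239). Epha5, a receptor best known from topographic maps in the brain, ranged from 6.26 to 7.70 in controls (median 7.05) and from 7.11 to 8.62 in mutants (median 7.94), a change of 0.79 ± 0.13 (adjusted p = 0.000101). Epha7, which is expressed in several splice forms, ranged from 9.54 to 11.12 in controls (median 10.34) and from 10.49 to 11.15 in mutants (median 10.88), a change of 0.50 ± 0.10 (adjusted p = 0.000518). Both ranges overlap across regions. Epha3 rose by 0.31 ± 0.09 (adjusted p = 0.0104). Epha2, the receptor for ephrin-A1 in epithelia, fell by 0.28 ± 0.07 (adjusted p = 0.00276), with a control range of 8.20 to 9.15 (median 8.83) and a mutant range of 8.15 to 8.91 (median 8.45). Epha1, Epha8 and Epha10 did not pass.

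Ephb3, which together with Ephb2 is known to be needed for palate closure, moved within narrow limits. Its 12 control arrays lay between 10.56 and 11.05 (median 10.80) and its 12 mutant arrays between 11.15 and 11.40 (median 11.25), with no overlap in any pair of regions (0.44 ± 0.04, SE, adjusted p = 4.06e-07). Ephb6, a receptor without kinase activity, rose by 0.35 ± 0.08 (adjusted p = 0.00134) and Ephb4, the partner of ephrin-B2 on veins, by 0.21 ± 0.06 (adjusted p = 0.00566). Ephb1 had a change of -0.12 ± 0.10 (adjusted p = 0.409).

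Of the ephrin ligands, Efna4, attached to the membrane by a lipid anchor like all A-type ephrins, lay between 9.71 and 10.21 in controls (median 9.88) and between 10.28 and 10.63 in mutants (median 10.40), again with no overlap (0.50 ± 0.05, SE, adjusted p = 4.62e-07). Efna2 rose by 0.38 ± 0.04 (adjusted p = 2.93e-06) and passed in all 4 regions. Efna3 ranged from 7.86 to 8.88 in controls (median 8.34) and from 7.51 to 8.56 in mutants (median 8.16) and fell by 0.21 ± 0.07 (adjusted p = 0.0351), a call that ended without any 1 of 11 arrays: control distal and proximal mandible 2 and 3, control distal maxilla 3, control proximal maxilla 1 and 3, mutant distal mandible 3, mutant proximal mandible 2, and mutant distal and proximal maxilla 3 (-0.20 to -0.15, adjusted p of 0.0554 to 0.0674). Efna1 and Efna5 did not pass, at -0.02 ± 0.07 and 0.00 ± 0.05. Efnb3, a transmembrane ligand known as a midline barrier to spinal axons, lay between 9.74 and 10.13 in controls (median 9.95) and between 10.19 and 10.87 in mutants (median 10.36), without overlap (0.49 ± 0.05, adjusted p = 1.13e-06). Efnb1, the X-linked gene of craniofrontonasal syndrome, and Efnb2, the arterial ephrin, rose by 0.16 ± 0.04 each (adjusted p = 0.00242 and 0.00577). With the Xist level as a covariate Efnb2 no longer passed (0.11, adjusted p = 0.115), nor did Epha3 (0.24, adjusted p = 0.12), Unc5c (0.16, adjusted p = 0.271) or Efna3 (-0.16, adjusted p = 0.206).

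Of the secreted semaphorins, Sema3b, a ligand of neuropilin receptors, ranged from 7.98 to 9.54 in controls (median 8.35) and from 7.51 to 8.36 in mutants (median 7.73). Its mean log2 change was -0.74 ± 0.09 (SE, adjusted p = 2.85e-06), and it was carried by the mandible. Proximal mandible controls stood at 9.24, 9.54 and 9.31 and mutants at 7.57, 7.92 and 8.36, which was 2.67-fold lower. Sema3c, a ligand known to guide neural crest cells into the heart, ranged from 10.40 to 11.18 in controls (median 10.92) and from 10 to 10.80 in mutants (median 10.26), a change of -0.61 ± 0.06 (adjusted p = 5.46e-07). Sema3e, which binds Plxnd1 directly and repels blood vessels, ranged from 8.07 to 9.69 in controls (median 8.83) and from 7.64 to 9.65 in mutants (median 8.39), a change of -0.35 ± 0.08 (adjusted p = 0.00189). Sema3a (0.01 ± 0.04), Sema3d (-0.13 ± 0.07), Sema3f (0.12 ± 0.06) and Sema3g (0.04 ± 0.07) did not pass. The other 2 probe sets of Sema3f had differences of 0.44 and 0.41, which were not tested.

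**Figure D2:**
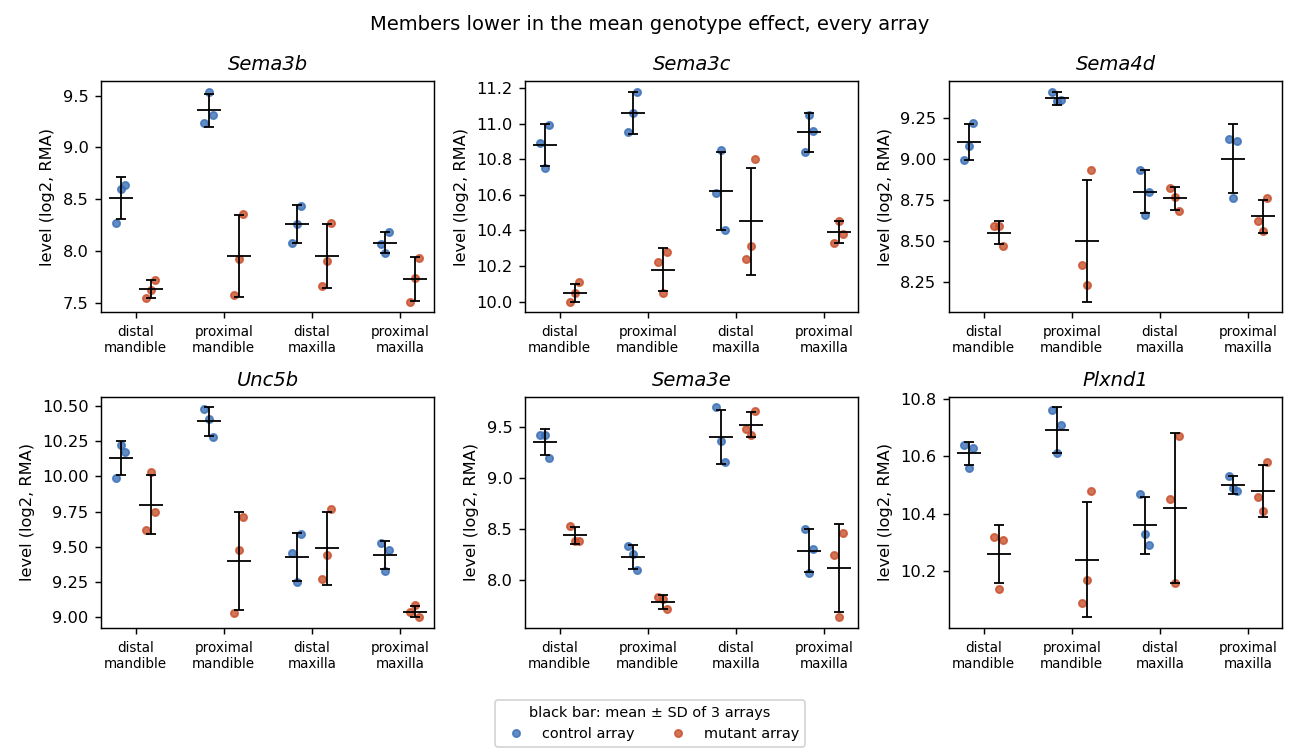
Levels (log2, after RMA) of 6 members that fell in the mean genotype effect, drawn by region as points for arrays and mean ± SD of 3 arrays. In the distal and proximal mandible the control and mutant arrays of Sema3b, Sema3c, Sema4d, Sema3e and Plxnd1 are apart, while in the distal maxilla those of all 6 genes overlap.

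The membrane-bound semaphorins split. Sema4d, a ligand of Plxnb1 that osteoclasts and leukocytes make, ranged from 8.66 to 9.41 in controls (median 9.10) and from 8.23 to 8.93 in mutants (median 8.61), a change of -0.45 ± 0.07 (SE, adjusted p = 3.42e-05). Its other probe sets, above the filter level on 13 and 0 of the 24 arrays, differed by -0.06 and -0.03. Of the 28 members that passed, those with several probe sets had the same sign in all of them. Some of these probe sets, as in Sema4d and Epha5, never exceeded the filter level. Unc5d, Efna4, Efnb3, Epha2, Ephb3, Ephb4, Ephb6, Plxnd1, Sema4c and Sema4g had only 1 probe set, so their sign could not be compared. Sema7a, a lipid-anchored ligand of Plxnc1 and integrins, ranged from 7.83 to 8.61 in controls (median 8.30) and from 7.72 to 8.43 in mutants (median 8.02), a change of -0.24 ± 0.06 (adjusted p = 0.00622). Sema4b fell by 0.18 ± 0.05 (adjusted p = 0.0117), but not with the mean of its probe sets (-0.12, adjusted p = 0.0781) or with the Xist covariate (-0.11, adjusted p = 0.18). In the other direction, Sema4g ranged from 8.31 to 8.98 in controls (median 8.55) and from 8.78 to 9.28 in mutants (median 9.01), a change of 0.47 ± 0.06 (adjusted p = 7.93e-06). Sema4c (0.25 ± 0.04, adjusted p = 0.00013) and Sema6a (0.29 ± 0.07, adjusted p = 0.00162) rose too. The markers of macrophages and osteoclasts, which make Sema4d, were lower as given before. The list's mean level was 9.94 to 10.06 in the control proximal mandible and 7.86 to 8.91 in the mutant, and its part in the result was not tested.

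The receptors of the semaphorins moved little. Plxnd1, the plexin of blood vessels and the receptor for Sema3e, fell by 0.19 ± 0.05 (SE, adjusted p = 0.0077), with the other 8 plexins between -0.03 and 0.16 and not called. Nrp2, the co-receptor for Sema3c and Sema3f, had a change of -0.12 ± 0.05 (adjusted p = 0.0765), and its other probe sets lay at -0.38, -0.44 and -0.19. Nrp1 had a change of 0.01 ± 0.08 (adjusted p = 0.914). None of the slits and robos passed: Slit1 had a change of 0.01 ± 0.04, Slit2 of -0.04 ± 0.05, Slit3 of 0.04 ± 0.10, Robo1 of 0.15 ± 0.06, Robo2 of -0.07 ± 0.14 and the endothelial Robo4 of 0.07 ± 0.05, with adjusted p from 0.0567 for Robo1 to 0.882 for Slit1. Of 10 endothelial markers, 1 rose and 3 fell in this mean (median 0.03). Their part in the change of Plxnd1 was not tested.

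These counts took the 4 arrays of a replicate number as independent, although their deviations correlated (0.231). With the 4 regions of each genotype and number averaged first, and without the number as a block, 11 members rose and 4 fell. All 15 were among the 28. The background was then 15.2% of all genes, 7.88% higher and 7.28% lower. The 15 were Unc5d, Epha4, Epha5, Ephb3, Ephb6, Efna2, Efna4, Efnb3, Sema4c, Sema4g, Ntn4, Sema3b, Sema3c, Sema4d and Unc5b. Their adjusted p in this limma fit ran from 0.00421 for Sema3c to 0.0428 for Ephb6, far above those given by family. It was 0.0048 for Ephb3, 0.0075 for Efna4, 0.0107 for Epha4 and 0.012 for Unc5d. The other 13 had adjusted p between 0.0502 for Sema6a and 0.157 for Sema4b, with 0.0563 for Sema3e, 0.0629 for Epha2, 0.0684 for Epha7, 0.0873 for Epha3, 0.0922 for Efna3, 0.0955 for Sema7a, 0.0972 for Unc5c, 0.108 for Ephb4, 0.119 for Efnb1, 0.121 for Efnb2 and 0.151 for Plxnd1.

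TGF-beta receptors of this type act through SMAD proteins, which bind DNA at the short core CAGAC. On the other strand the same core reads GTCTG. The 250 bases before the start of 3 members whose mean change passed in both fits are shown, from RefSeq's promoter table of GRCm38.p6, each read 5′ to 3′ on the gene's strand with matches in capitals. Epha4 (chr1:77515089-77515338, minus strand) rose and held 3 matches, Ephb3 (chr16:21204545-21204794, plus strand) rose and held 1, and Sema3c (chr5:17574566-17574815, plus strand) fell and held 0.
Epha4: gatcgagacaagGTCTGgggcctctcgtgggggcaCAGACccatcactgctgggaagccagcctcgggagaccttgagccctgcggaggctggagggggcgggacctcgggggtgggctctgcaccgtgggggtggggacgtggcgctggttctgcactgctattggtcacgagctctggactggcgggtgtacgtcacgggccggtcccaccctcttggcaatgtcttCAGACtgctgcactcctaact
Ephb3: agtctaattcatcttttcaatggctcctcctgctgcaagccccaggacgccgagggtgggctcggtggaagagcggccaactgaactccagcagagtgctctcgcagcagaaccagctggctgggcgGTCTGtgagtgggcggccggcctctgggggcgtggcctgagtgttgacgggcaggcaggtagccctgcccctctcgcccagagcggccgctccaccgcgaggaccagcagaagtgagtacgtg
Sema3c: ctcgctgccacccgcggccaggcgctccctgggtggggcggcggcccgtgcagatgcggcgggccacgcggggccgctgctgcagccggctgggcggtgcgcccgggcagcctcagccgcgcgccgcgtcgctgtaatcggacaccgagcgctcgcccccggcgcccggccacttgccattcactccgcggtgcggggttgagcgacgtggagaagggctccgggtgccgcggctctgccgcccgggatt
A match to 5 letters is common: 42.2% of the table's 32851 windows held at least 1 on either strand, and 2.32% held 3 or more. Of 57 members with a window, 31 held at least 1. The share was 8 of 15 (53.3%) among members that rose in the mean, close to the 54.4% of all members with a window. It was 3 of 9 among those that fell, and no difference between these groups was tested. These are descriptions of letters and say nothing about binding.

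**Figure D3:**
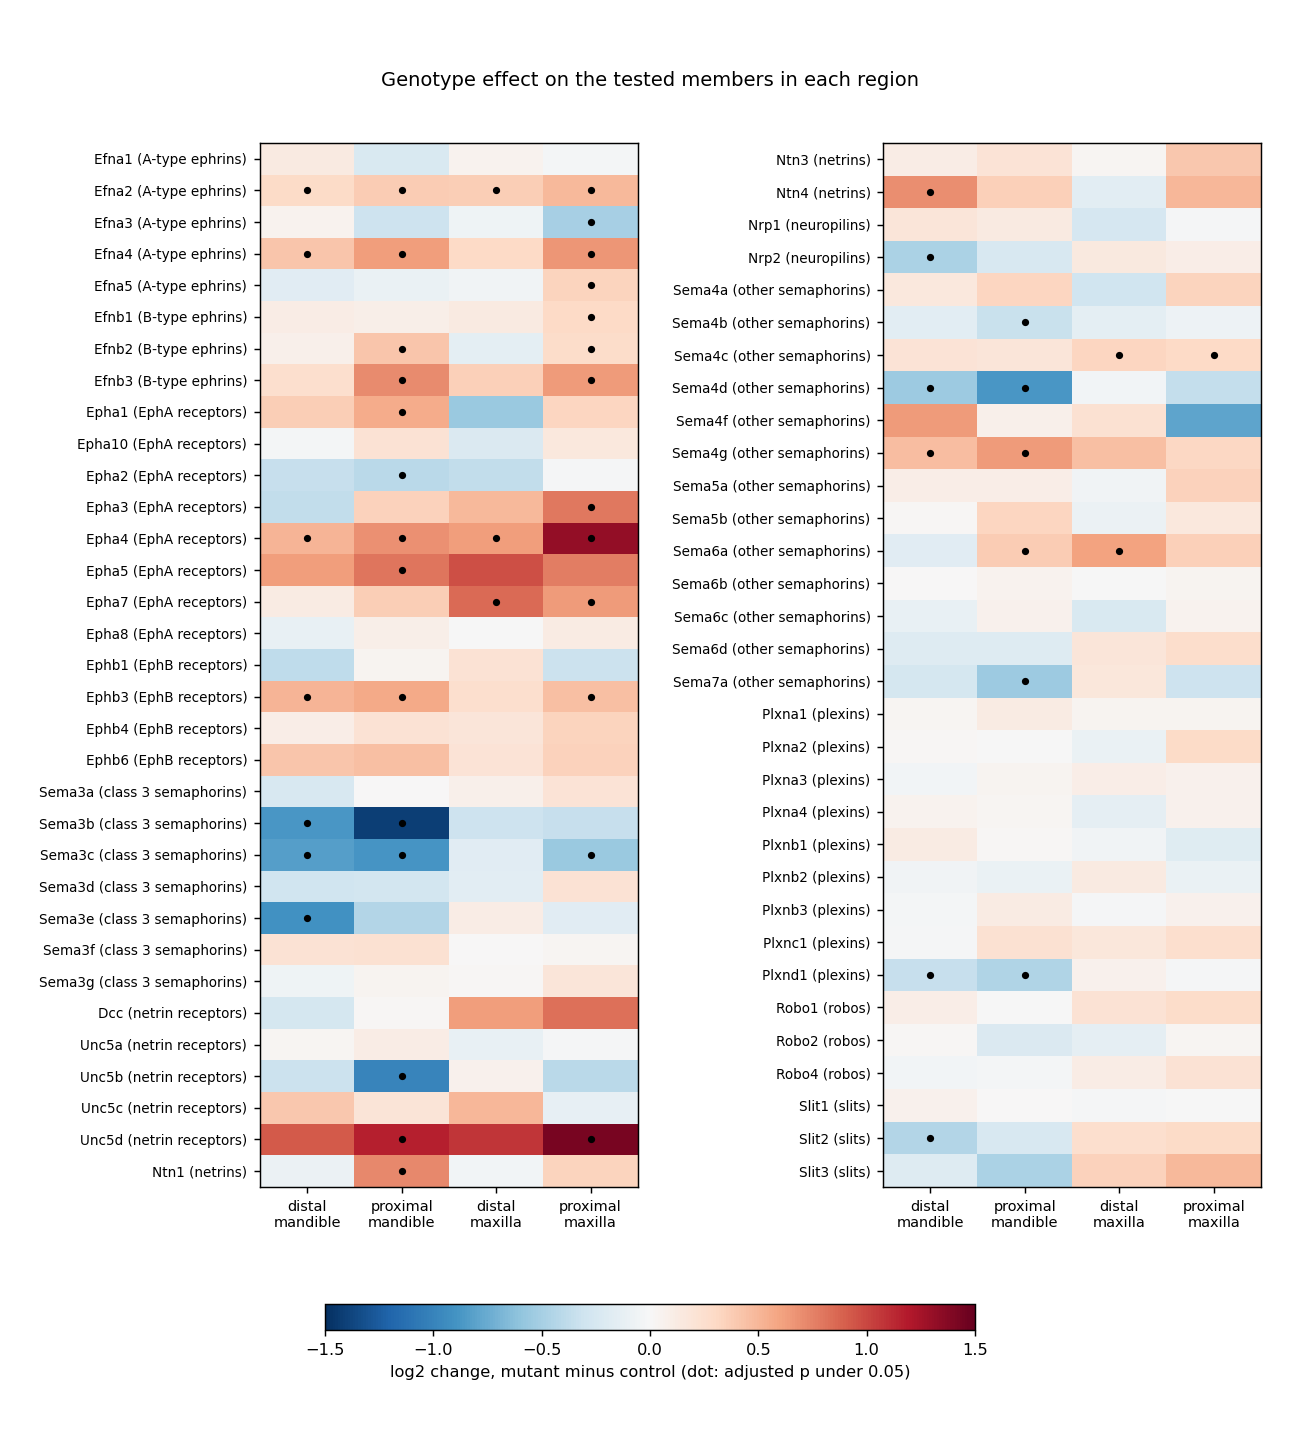
Log2 change (mutant minus control, colour) of the 65 tested members, by family, in each of the 4 regions, with a dot where the adjusted p was under 0.05. Epha4 and Efna2 carry a dot in all 4 regions, and Sema3b and Plxnd1 carry one in both parts of the mandible and in neither part of the maxilla.

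In the distal mandible 6 members rose and 7 fell, which is 20.0% of those tested against 16.0% of all genes (8.02% higher, 7.98% lower). Sema3e had the largest fall, from 9.42, 9.42 and 9.20 in controls to 8.53, 8.39 and 8.39 in mutants (-0.91 ± 0.16, SE, adjusted p = 0.001). Sema3b went from 8.27, 8.60 and 8.64 to 7.54, 7.62 and 7.72 (-0.88 ± 0.17, adjusted p = 0.00223), and Sema3c from 10.89, 10.75 and 10.99 to 10, 10.05 and 10.11 (-0.82 ± 0.12, adjusted p = 0.000245). In all 3 the groups were apart. Sema4d (-0.55 ± 0.14, adjusted p = 0.00878), Nrp2 (-0.47 ± 0.10, adjusted p = 0.00374), Slit2 (-0.43 ± 0.11, adjusted p = 0.00942) and Plxnd1 (-0.35 ± 0.11, adjusted p = 0.0285) fell as well, while Nrp1 (0.19 ± 0.15, adjusted p = 0.466) and the other plexins did not pass. Ntn4 rose from 7.66, 7.67 and 7.49 to 8.37, 8.23 and 8.33 (0.70 ± 0.18, adjusted p = 0.0104). Ephb3 (0.51 ± 0.09), Epha4 (0.51 ± 0.17), Sema4g (0.46 ± 0.12), Efna4 (0.42 ± 0.10) and Efna2 (0.28 ± 0.09) rose too. Muscle markers had 6 of 8 lower here (median -2.85), bone markers 5 of 5 (median -2.98), cartilage markers 5 of 7 (median -2.34), macrophage and osteoclast markers 7 of 8 (median -1.49) and endothelial markers 3 of 10 lower and 1 higher (median -0.09). Of cranial mesenchyme markers 2 of 8 were higher (median 0.24), and 1 of 6 Schwann cell and glial markers was lower. Their part in these changes was not tested.

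Calls in the distal mandible that rested on 1 array were those of Efna2 (ended without any array but control 2; 0.25 to 0.30, adjusted p of 0.0735 to 0.128), Epha4 (control 2 or 3, mutant 1 or 2; 0.36 to 0.57, adjusted p of 0.0661 to 0.233) and Plxnd1 (any control or mutant 2; -0.38 to -0.29, adjusted p of 0.0527 to 0.135). Ntn4 was lost without control 3 (0.64, adjusted p = 0.0513), Sema4g without control 1 (0.41, adjusted p = 0.0617) and Slit2 without mutant 2 (-0.38, adjusted p = 0.0561). Averaging all probe sets ended the calls of Sema4d (-0.15, adjusted p = 0.175) and Slit2 (-0.38, adjusted p = 0.0681), and the Xist covariate those of Epha4 (0.38, adjusted p = 0.143) and Efna2 (0.28, adjusted p = 0.0682).

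In the proximal mandible 12 members rose and 8 fell, or 30.8% of those tested against 19.9% of all genes (9.56% higher, 10.4% lower). Sema3b (-1.41 ± 0.17, SE, adjusted p = 2.16e-05) led the falls. Unc5b followed (-0.99 ± 0.15, adjusted p = 0.000121). Sema3c went from 10.95, 11.06 and 11.18 in controls to 10.22, 10.05 and 10.28 in mutants (-0.89 ± 0.12, adjusted p = 6.02e-05), and Sema4d from 9.41, 9.35 and 9.36 to 8.35, 8.23 and 8.93 (-0.87 ± 0.14, adjusted p = 0.000157). Sema7a (-0.55 ± 0.13, adjusted p = 0.00482), Plxnd1 (-0.45 ± 0.11, adjusted p = 0.00482), Epha2 and Sema4b were also lower. In Sema4d, Sema3b, Unc5b and Plxnd1 the third mutant array was the nearest to controls. Among the rises, Unc5d was first, followed by Epha5 (0.80 ± 0.26, adjusted p = 0.0372) and by Ntn1, the founding netrin, whose controls of 9.41, 8.88 and 9.62 and mutants of 10.41, 9.50 and 10.17 overlapped (0.72 ± 0.21, adjusted p = 0.0221). Efnb3 rose from 9.91, 9.84 and 10 to 10.65, 10.36 and 10.87 (0.71 ± 0.11, adjusted p = 0.000122) and Epha4 from 10.14, 9.98 and 9.88 to 10.87, 10.75 and 10.45 (0.69 ± 0.17, adjusted p = 0.00652). Sema4g, Efna4, Ephb3, Epha1, Efnb2, Efna2 and Sema6a rose by 0.39 to 0.64. Macrophage and osteoclast markers had 7 of 8 lower (median -1.52), bone markers 4 of 5 (median -1.80), cartilage markers 2 of 7 (median -1.56), muscle markers 1 of 8 (median -0.94) and endothelial markers 4 of 10 (median -0.24), while 2 of 8 cranial mesenchyme (median 0.18), 3 of 6 Schwann cell and glial markers (median 0.55), 3 of 9 epithelial (median 0.83) and 2 of 12 neuronal markers (median 0.47) were higher. Their part was not tested.

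Without control 2 of the proximal mandible 13 members passed instead of 20. Beside Unc5d, given before, calls ended for Epha1 (any array but mutant 1; 0.45 to 0.61, adjusted p of 0.0553 to 0.156), Sema6a (any but mutant 1; 0.25 to 0.45, adjusted p of 0.0513 to 0.22), Sema4b (any but control 1; -0.36 to -0.27, adjusted p of 0.0565 to 0.147), Epha2 (control 1 or 2, mutant 1 or 3; -0.43 to -0.29, adjusted p of 0.0562 to 0.195), Epha5 (control 2 or 3, mutant 1 or 3; 0.64 to 0.77, adjusted p of 0.0936 to 0.139) and Ntn1 (control 2, mutant 1 or 3; 0.51 to 0.65, adjusted p of 0.0711 to 0.145). Epha1, the receptor of which the other probe sets differed by 0.15 and -0.09 here, also lost its call with the mean of probe sets (0.21, adjusted p = 0.247). With the Xist covariate Epha1, Epha2, Epha5, Sema4b and Sema6a had adjusted p of 0.0627 to 0.116.

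In the distal maxilla 5 members rose and 0 fell, 7.69% of those tested against 2.96% of all genes (1.84% higher, 1.12% lower). Epha7 rose from 10.24, 9.69 and 9.54 to 10.87, 10.49 and 10.65 (0.85 ± 0.20, SE, adjusted p = 0.0269). Epha4 went from 10.39, 9.95 and 10.11 to 11.01, 10.55 and 10.79 (0.63 ± 0.17, adjusted p = 0.0486) and Sema6a, a transmembrane semaphorin that binds A-type plexins, from 8.51, 8.25 and 8.04 to 8.89, 8.72 and 9.0 (0.60 ± 0.13, adjusted p = 0.0211). Efna2 (0.37 ± 0.09, adjusted p = 0.0362) and Sema4c (0.32 ± 0.09, adjusted p = 0.0467) completed the 5. Control and mutant arrays of these genes did not overlap. Of the marker lists, 1 of 7 cartilage markers was lower (median -1.71) and 1 of 8 cranial mesenchyme markers higher (median 0.24), and their part was not tested. Each of the 5 calls ended without control 3 and without mutant 1, so that 0 members passed in either case (12 and 15 at an unadjusted p under 0.05, against 16 with all arrays). Calls were also lost without control 2 (Epha4 and Sema4c), mutant 2 (Efna2, Epha4 and Sema4c) and mutant 3 (Efna2 and Epha4), with changes of 0.23 to 0.75 and adjusted p of 0.0516 to 0.288 over all these losses. Without mutant 2, 3 passed, and without control 1, 9 passed. With the Xist covariate and with only the arrays of this region 0 passed (17 and 14 at an unadjusted p under 0.05), and without both mutant maxilla arrays numbered 3 it was 8.

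In the proximal maxilla 12 members rose and 2 fell, or 21.5% of those tested against 10.5% of all genes (5.75% higher, 4.79% lower), and the median log2 change of the members was 0.20 against 0.03 over all genes. All 3 B-type ephrins and 3 of 5 A-type ephrins rose. Unc5d and Epha4 had the largest rises. Epha3, a receptor bound mainly by ephrin-A5, went from 11.53, 11.14 and 11.07 to 11.87, 11.91 and 12.36 (0.79 ± 0.18, SE, adjusted p = 0.00929), Efna4 from 9.71, 9.82 and 9.85 to 10.28, 10.49 and 10.61 (0.67 ± 0.10, adjusted p = 0.000439) and Epha7 from 10.66, 10.33 and 9.73 to 11.02, 10.89 and 10.74 (0.64 ± 0.20, adjusted p = 0.0421). The ranges were apart in all 3. Efnb3 (0.64 ± 0.11), Efna2 (0.49 ± 0.09), Ephb3 (0.45 ± 0.09), Efna5 (0.33 ± 0.10), Efnb1 (0.30 ± 0.08), Sema4c (0.30 ± 0.09) and Efnb2 (0.28 ± 0.09) rose as well. Sema3c fell from 10.84, 11.05 and 10.96 to 10.33, 10.45 and 10.38 (-0.56 ± 0.12, adjusted p = 0.00693) and Efna3 from 8.73, 8.38 and 8.88 to 8.19, 8.33 and 7.98 (-0.50 ± 0.15, adjusted p = 0.041). Epithelial markers had 5 of 9 higher here (median 1.38) and cranial mesenchyme markers 4 of 8 (median 0.71), cartilage markers had 6 of 7 lower (median -3.28) and bone markers 2 of 5 (median -1.81), and their part in these changes was not tested.

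Without both mutant maxilla arrays numbered 3 the proximal maxilla had 9 calls, and Unc5d (0.91, adjusted p = 0.148) was not among them. It had 8 without control 3, 8 without mutant 3, 8 with the Xist covariate and 5 with only the arrays of this region. Single arrays ended the calls of Efna5 (any but control 3; 0.22 to 0.35, adjusted p of 0.0656 to 0.198), Efnb2 (any but mutant 2; 0.20 to 0.31, adjusted p of 0.0606 to 0.156), Epha7 (any but control 1; 0.39 to 0.72, adjusted p of 0.0638 to 0.221), Sema4c (any but mutant 1; 0.27 to 0.31, adjusted p of 0.064 to 0.137) and Efna3 (control 1 or 3, mutant 1 or 3; -0.51 to -0.39, adjusted p of 0.0695 to 0.192). They also ended those of Efnb1 (control 3 or mutant 1; 0.23 to 0.26, adjusted p of 0.0593 to 0.095) and Epha3 (control 3 or mutant 3; 0.64 to 0.70, adjusted p of 0.0527 to 0.067). Epha4, Efna2, Efna4, Efnb3, Ephb3 and Sema3c passed whichever single array was left out.

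Whether the genotype effect differed between the jaws was tested as the effect in the mandible minus that in the maxilla. Of the 65 members, 9 passed and all 9 were lower in this difference, 13.8% against 6.76% of all genes (2.45% higher, 4.31% lower). The median over members was -0.09, against 0.00 over all genes, and 41 of 65 members (63.1%) were below 0, against 49.2% of all genes. The 9 belonged to the slits, the class 3 semaphorins and their receptors, with Sema4d and Epha3. For Slit2 and Slit3, the main repellents of Robo-bearing cells, the effects had opposite signs, at -0.34 and -0.34 in the mandible and 0.27 and 0.42 in the maxilla (differences of -0.60 ± 0.11, SE, adjusted p = 0.0024, and -0.76 ± 0.19, adjusted p = 0.0237). Slit3 stood at 9.11, 8.89 and 9.18 in the control proximal mandible and 8.17, 8.61 and 8.97 in the mutant, and at 8.20, 8.02 and 8.25 in the control proximal maxilla and 8.47, 8.44 and 9.02 in the mutant. The groups of Slit3 overlapped by 1 mutant array in the proximal mandible and were apart in the proximal maxilla. Within single regions only the fall of Slit2 in the distal mandible passed, and Slit3 passed in none. For Sema3b (-0.81 ± 0.17, adjusted p = 0.00833) and Sema3c (-0.49 ± 0.12, adjusted p = 0.0218) the effect was negative in both jaws and larger in the mandible, at -1.15 against -0.33 and -0.85 against -0.37. Sema3e (-0.65 ± 0.16, adjusted p = 0.0218), its receptor Plxnd1 (-0.42 ± 0.11, adjusted p = 0.0208) and Nrp2 (-0.48 ± 0.10, adjusted p = 0.00759) had effects of -0.68, -0.40 and -0.35 in the mandible and of -0.03, 0.02 and 0.12 in the maxilla. Sema4d (-0.51 ± 0.14, adjusted p = 0.0275) had -0.71 against -0.20. Epha3 (-0.65 ± 0.18, adjusted p = 0.037) had -0.01 against 0.64.

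Sema3b, Sema3c, Slit2, Slit3, Nrp2, Sema3e and Plxnd1 kept this call without any 1 array, but without both mutant maxilla arrays numbered 3 Sema3e (-0.53, adjusted p = 0.0551), Plxnd1 (-0.34, adjusted p = 0.051), Sema4d (-0.50, adjusted p = 0.052) and Epha3 (-0.45, adjusted p = 0.0702) did not pass. In that setting 6 members passed, 5 lower and 1 higher. Array weights gave 11 lower and 1 higher, and the replicate number as a block 13 lower and 1 higher. Sema4d also lost this call without control distal mandible 3 or mutant proximal mandible 1 (-0.48, adjusted p of 0.0509 to 0.0598). With the mean of probe sets Sema4d lost it too (-0.11, adjusted p = 0.382). Epha3 lost it without any of 16 of the 24 arrays (-0.66 to -0.53, adjusted p of 0.0514 to 0.0752), the exceptions being control distal and proximal maxilla 1, mutant distal mandible 1, mutant proximal mandible 1 and 3, mutant distal maxilla 2, and mutant proximal maxilla 1 and 2. Macrophage and osteoclast markers (5 of 8 lower, median -1.23), muscle markers (4 of 8, median -2.26), bone markers (2 of 5, median -1.08) and endothelial markers (3 of 10, median -0.29) were lower in the same difference. Higher were 1 of 12 neuronal (median 0.49), 1 of 5 brain and eye (0.56), 1 of 9 epithelial (0.42) and 1 of 8 cranial mesenchyme markers (-0.23). The part of these cells was not tested.

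**Figure D4:**
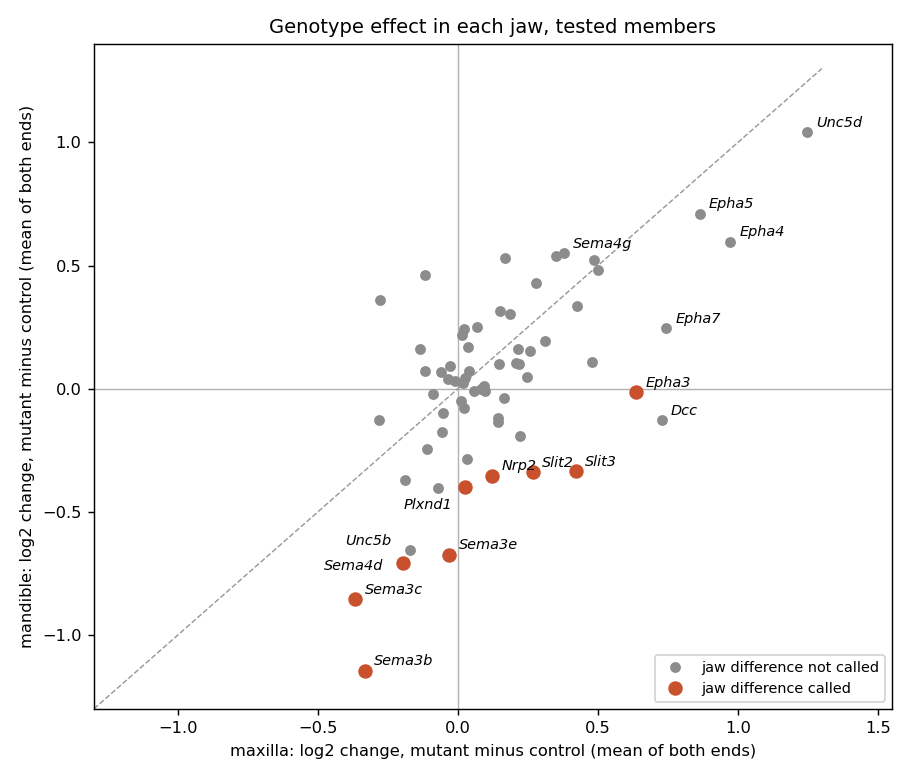
Genotype effect (log2 change, mean of both ends) in the maxilla on the x axis and in the mandible on the y axis for the 65 tested members, with the 9 called in the jaw difference in red and the line of equal effects dashed. All 9 lie below the line, Slit2 and Slit3 with opposite signs in the jaws, while Unc5d, Epha4 and Epha5 are positive in both.

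The genotype effect in the distal parts minus that in the proximal parts gave no call among the members, by limma, with 0.115% of all genes called and 17 members at an unadjusted p under 0.05. The largest differences were 0.79 ± 0.32 for Sema4f (adjusted p = 0.482) and -0.59 ± 0.21 for Ntn1 (adjusted p = 0.391).

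In control jaws the members also differed by position. Mandible was compared with maxilla over both ends (6 arrays each), and 19 members were higher and 11 lower in the mandible, 46.2% against 34.7% of all genes (16.7% higher, 18.1% lower). Unc5b was higher in the mandible, at 9.99 to 10.48 against 9.25 to 9.59 (0.82 ± 0.10, SE, adjusted p = 7.15e-06), and so were Epha3, at 11.88 to 12.19 against 10.97 to 11.53 (0.77 ± 0.13, adjusted p = 0.000113), Sema3b (0.77 ± 0.12, adjusted p = 7.67e-05), Slit3 (0.70 ± 0.14, adjusted p = 0.00048) and Epha7 (0.60 ± 0.14, adjusted p = 0.00204). The arrays of the jaws were apart for Unc5b, Epha3 and Slit3. Smaller differences in this direction included Nrp2 (0.29 ± 0.07, adjusted p = 0.0034) and Slit2 (0.28 ± 0.08, adjusted p = 0.00691). Ntn1 was lower in the mandible, at 8.88 to 9.62 against 9.89 to 10.23 (-0.83 ± 0.15, adjusted p = 0.000258), with its receptor Dcc (-0.74 ± 0.24, adjusted p = 0.019), Ephb1 (-0.74 ± 0.15, adjusted p = 0.000582), Sema4f (-0.67 ± 0.22, adjusted p = 0.0251) and Epha1 (-0.58 ± 0.13, adjusted p = 0.0015). Neuronal markers were lower in the mandible too, 9 of 12 with a median of -1.88, as were 4 of 5 brain and eye markers (median -3.08) and 5 of 6 Schwann cell and glial markers (median -0.48). The mean of the brain and eye list was 5.10 to 5.47 in both mandible groups, under the filter level, and 7.33 to 8.89 in the maxilla groups. The part of these cells was not tested. Nor was that of muscle, with 8 of 8 markers higher in the mandible (median 2.85), bone (4 of 5, median 1.49), macrophages and osteoclasts (6 of 8, median 1.22) or endothelium (5 of 10, median 0.20). Epithelial markers had 4 of 9 lower and 1 higher (median -0.29), and cranial mesenchyme markers 4 of 8 higher and 2 lower (median 0.18).

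Of these jaw differences 21 of 30 passed whichever single array was left out. Sema4f was lost without control distal mandible 3, proximal mandible 3, distal maxilla 1 or 2, or proximal maxilla 1 (-0.62 to -0.49, adjusted p of 0.0586 to 0.085) and Dcc with the mean of its probe sets (-0.41, adjusted p = 0.0509). Epha4 (0.35), Ntn3 (0.34), Epha5 (-0.56), Ephb3 (-0.17), Sema4g (-0.26), Sema4a (0.35), Plxnd1 (0.22) and Plxnc1 (-0.33) each lost the call without any of 4 to 8 arrays, with adjusted p of 0.0505 to 0.0984, and each of the 12 control arrays ended at least 1 of these calls.

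Within the control mandible 6 members were higher distally and 3 proximally, 13.8% against 5.45% of all genes (2.91% higher, 2.54% lower). Within the control maxilla 7 were higher distally and 0 proximally, 10.8% against 10.9% of all genes (4.90% higher, 5.99% lower), so the share in the maxilla is no more than the background. Sema3e was higher distally in both jaws, at 9.42, 9.42 and 9.20 against 8.34, 8.26 and 8.10 in the mandible (1.11 ± 0.16, SE, adjusted p = 0.000279) and at 9.69, 9.36 and 9.16 against 8.50, 8.07 and 8.31 in the maxilla (1.11 ± 0.16, adjusted p = 0.000124). Epha1, an Eph receptor of epithelia, differed by 0.87 ± 0.18 in the mandible (adjusted p = 0.00724) and by 1.49 ± 0.18 in the maxilla (adjusted p = 2.3e-05). Sema4a (0.94 ± 0.18 and 0.85 ± 0.18), Efnb2 (0.72 ± 0.09 and 0.71 ± 0.09) and Sema3d (0.60 ± 0.15 and 0.81 ± 0.15) were also distal in both. In all 5 genes the distal arrays lay above the proximal ones in both jaws. Unc5c was distal in the mandible (0.65 ± 0.17, adjusted p = 0.0336), and Efna5 (0.52 ± 0.10, adjusted p = 0.00265) and Epha2 (0.59 ± 0.14, adjusted p = 0.00704) in the maxilla. Whether those differences differ between the jaws was not tested. Proximally higher in the mandible were Dcc, at 6.89, 7.09 and 6.94 distally against 8.09, 8.40 and 7.93 (-1.17 ± 0.34, adjusted p = 0.0467), Sema3b (-0.86 ± 0.17, adjusted p = 0.00553) and Nrp2 (-0.47 ± 0.10, adjusted p = 0.00769). Epithelial markers were distal in both jaws, 6 of 9 in each (medians of 1.34 and 2.41), and so were cranial mesenchyme markers, 3 of 8 in the mandible and 4 of 8 in the maxilla (medians of 0.27 and 0.72). In the maxilla 4 of 12 neuronal (median -1.31), 3 of 8 muscle (median -1.48) and 3 of 10 endothelial markers (median -0.31) were higher proximally, and in the mandible 1 of 5 bone markers was (median -0.96). The part of these cells was not tested.

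Without any 1 of the 6 arrays Dcc (-1.27 to -1.04, adjusted p of 0.0811 to 0.174) and Unc5c (0.62 to 0.67, adjusted p of 0.0834 to 0.123) lost their calls in the control mandible, and Sema3d without control distal 1 or control proximal 2 or 3 (0.52 to 0.58, adjusted p of 0.0788 to 0.122). Epha1 lost its call there with the mean of probe sets (0.26, adjusted p = 0.277). In the maxilla Epha2 was lost without control distal 3 (0.48, adjusted p = 0.0625), and 11 members passed without control distal 2.

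**Figure D5:**
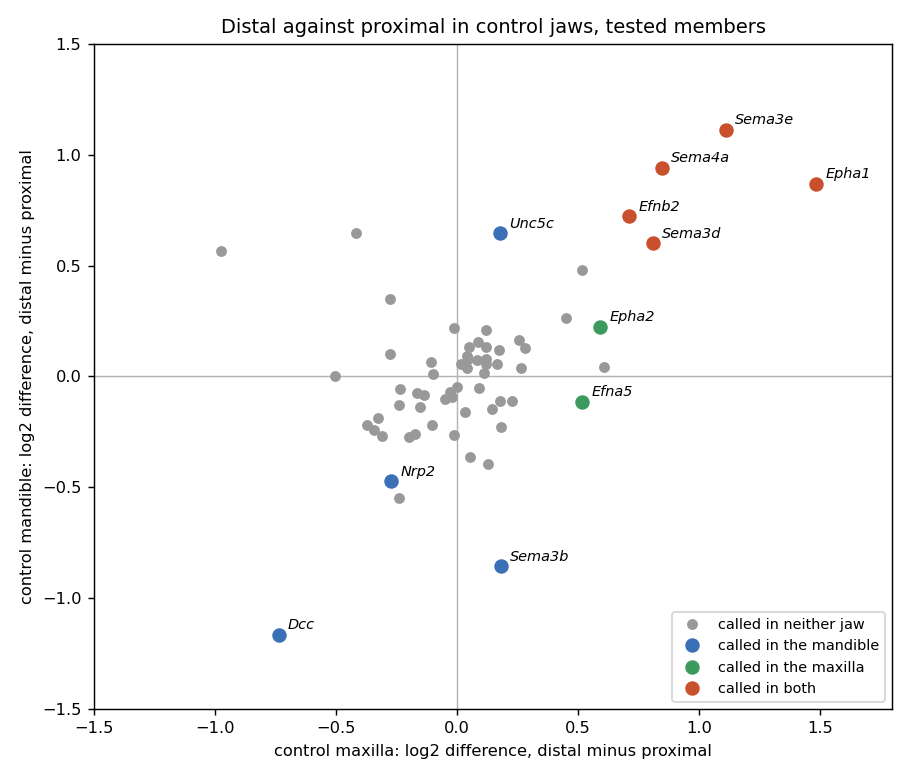
Distal minus proximal log2 difference in the control maxilla (x axis) and the control mandible (y axis) for the 65 tested members, coloured by where the difference was called. Sema3e, Epha1, Sema4a, Efnb2 and Sema3d are called distal in both jaws, and Dcc, Sema3b and Nrp2 are called proximal in the mandible.

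Of 50 tested genes that act with these ligands and receptors (co-receptors, adhesion molecules and cytoplasmic effectors), 15 rose and 5 fell in the mean genotype effect, with a median of 0.03. That share is again near the 40.6% of all genes. Flrt3, an adhesion protein of the family that binds Unc5 receptors, rose by 0.62 ± 0.05 (SE, adjusted p = 5.99e-08), with changes of 0.59 and 0.79 in the distal and proximal mandible and of 0.37 (adjusted p = 0.055) and 0.73 in the distal and proximal maxilla. Tiam1, an activator of Rac that ephrin signalling uses, rose by 0.29 ± 0.04 (adjusted p = 2.68e-05), and its effect was larger in the mandible (difference of 0.39 ± 0.09, adjusted p = 0.00964). Mical1, an enzyme that disassembles actin below plexins, rose by 0.38 ± 0.06 (adjusted p = 4.39e-05). Farp2, an effector of class 3 semaphorin receptors, fell by 0.48 ± 0.10 (adjusted p = 0.000729), with -1.28 ± 0.20 in the proximal mandible and 0.24 ± 0.20 in the distal maxilla (adjusted p = 0.503), and its jaw difference was -0.94 ± 0.20 (adjusted p = 0.00741).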

How the data were processed

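RNA from 24 jaw samples was measured on single-colour arrays. The deposited log2 values were made by the authors with RMA, per the submitters' processing notes, with no version given. Their range, 3.29 to 14.86, is that of a log2 scale. Of 45101 probe sets, 34945 had 1 gene symbol in the array annotation, 932 several, 9160 none and 64 were controls. Each of 18193 genes was read from its probe set with the highest mean, and 13942 above the 40th percentile in at least 3 arrays were tested.

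A model with 1 mean per group was fitted over all 24 arrays in limma 3.58.1 (R 4.3.3, eBayes with trend, two-sided). Benjamini-Hochberg adjustment was made over all genes in each of 10 comparisons. The fit was checked on simulated data whose arrays varied independently, so the check does not cover correlation between same-numbered arrays. Python 3.11.15 with numpy 2.4.6, pandas 2.3.3 and, for the plots, matplotlib 3.10.9 handled the rest. Values after ± are standard errors of the fit, or SD where stated. With 3 arrays per group, precision is limited by their number. The members and lists were chosen with earlier results of these data known. Named were the 8 largest called changes in each direction for the mean effect, 5 for other comparisons, a set list of 26 genes 4 other pathway genes by moderated statistic, and called members whose probe sets differ in sign; other members are named to complete their families. Alternatives were another quantile normalization, array weights, other filters, the mean of probe sets, an Xist covariate, replicate numbers as a block, only the arrays compared and single arrays left out; leaving out 2 mutant maxilla arrays was added after the data were seen.

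The labels number the arrays 1 to 3. Deviations of same-numbered arrays, correlated across genes, gave r over 0.1 for every number in the mean genotype effect (0.16, 0.13 and 0.36), between control jaws (0.55, 0.26 and 0.12) and in the control mandible (0.68, 0.33 and 0.50), but not in the single regions or the control maxilla. The reported calls come from the fit without the number. In the 3 comparisons named, the fit with the number as a block kept every call. It gave 30, 32 and 11 calls among the members, against 28, 30 and 9. This block is shared by control and mutant arrays of a number. In the mean genotype effect it therefore does not cover correlation among regions of the same genotype and number.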

Additional observations from a re-analysis of the deposited data

Results flagged for a closer look

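The genotype effect differed between the jaws for 9 members, tested as an interaction in limma (mandible minus maxilla, adjusted p under 0.05). That is 13.8% of the members tested, against 6.76% of all genes. The log2 differences were -0.81 for Sema3b, -0.76 for Slit3, -0.65 for Epha3, -0.65 for Sema3e, -0.60 for Slit2, -0.51 for Sema4d, -0.49 for Sema3c, -0.48 for Nrp2 and -0.42 for Plxnd1. In every case the genotype effect was lower in the mandible. As given before, Sema3e, Plxnd1, Sema4d and Epha3 did not pass without both mutant maxilla arrays numbered 3. Sema4d also lost its call with the mean of probe sets, and Epha3 without any of 16 of the 24 arrays.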

How the results depend on the processing

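Member counts that moved by more than 1.5 times were as follows. With array weights 28 members passed in the distal mandible (13 as reported), 10 in the distal maxilla (5) and 18 in the comparison of the control mandible's ends (9). With only the arrays compared the counts were 21 in the distal mandible, 0 in the distal maxilla, 5 in the proximal maxilla (14) and 18 in the control mandible. With the Xist covariate they were 0 in the distal maxilla and 8 in the proximal maxilla. Without a filter 3 passed in the distal maxilla. With the mean of probe sets 8 passed there, 15 in the jaw difference (9) and 1 in the end difference (0). With the replicate number as a block 9 passed in the distal maxilla, 14 in the jaw difference, 1 in the end difference and 11 in the control maxilla (7). With the regions of each genotype and number averaged first, in a fit without pairing, 15 passed in the mean effect (28). As a random block, genotype and number together gave 24 in the mean effect. Elsewhere the number as a block stayed within 1.5 times. Without both mutant maxilla arrays numbered 3, 8 passed in the distal and 9 in the proximal maxilla. With single arrays left out the counts ran from 9 to 13 in the distal mandible, 13 to 17 in the proximal mandible, 0 to 9 in the distal maxilla, 8 to 12 in the proximal maxilla, 27 to 29 in the mean effect, 7 to 12 in the jaw difference, 0 to 0 in the end difference, 24 to 29 between control jaws, 6 to 7 in the control mandible and 6 to 11 in the control maxilla. No called member changed sign in any of these. Unc5d, not called in either, changed sign in the jaw difference (-0.21) with array weights (0.07), without mutant proximal maxilla 3 (0.05) and without both mutant maxilla arrays numbered 3 (0.049; single arrays left out, -0.432 to 0.05). It also did so within the control mandible (0.04) without control distal mandible 3 (-0.018; single arrays left out, -0.018 to 0.118). The cause of these shifts was not tested.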
